A study of Mus musculus with 9 samples.

Results

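Igj, Pigr, Pou2af1, Xbp1, Prdm1, Tnfrsf17 and Sdc1 are genes of plasma cells and of the transport of IgA into the gut. They were chosen by name, as the array rows whose gene symbol is one of these 7, out of 15674 gene names on the arrays. All 7 were found, each with 1 probe. They were compared with Cd79a and Ms4a1, genes of B cells, to see whether their levels moved with the B cell content of a sample or apart from it.

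The samples were pieces of jejunum, the middle stretch of the small intestine, from 9 male mice of the outbred stock OF1 aged 7 weeks, with 1 mouse per array. All were animals of the third generation of a feeding study, and each mouse had received feed B (mice 7, 8 and 10), feed K (mice 1, 3 and 4) or feed G (mice 4, 8 and 11). Mouse numbers repeat between feeds but stand for different animals. The study concerned a custom maize diet, offered without restriction, and food was withheld for 3 hours before sampling. What the letters mean, and which of them stand for maize, is not given in the sources used here, so no feed was treated as the control. The time of day of sampling was not randomized and is not recorded per mouse. RNA was hybridised to single-colour oligonucleotide arrays with chemiluminescent readout, and values are given as the log2 of the quantile-normalized signal, on which a difference of 1 is a doubling. A gene counted as detected where its signal was at least 3 times the noise. Whole tissue was measured, so fewer cells of a type and less RNA per cell cannot be told apart.

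Plasma cells are the antibody-secreting end stage of B cells, and those of the gut wall mostly make IgA. IgA is joined into a dimer by the J chain, bound by the polymeric immunoglobulin receptor on the basal side of the epithelium, carried through the cell and released into the lumen. The switch from B cell to plasma cell is driven by Prdm1 and Xbp1, and B cells lose surface proteins such as Cd79a and Ms4a1 on the way.

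The 250 bases before the transcription start of 4 of the genes are shown because Pou2af1 went with Cd79a, and Tnfrsf17 with Igj, over the mice (values are given further on). The sequences are RefSeq's for the build GRCm38.p6, 5′ to 3′ on the strand of the gene. Capitals mark matches to 4 motifs searched on both strands.
Pou2af1, chr9:51213440-51213689, plus strand: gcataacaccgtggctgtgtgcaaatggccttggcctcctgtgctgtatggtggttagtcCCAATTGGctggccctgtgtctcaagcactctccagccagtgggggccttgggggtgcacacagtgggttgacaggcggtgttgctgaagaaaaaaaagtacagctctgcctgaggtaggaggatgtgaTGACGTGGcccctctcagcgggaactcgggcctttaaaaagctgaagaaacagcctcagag
Cd79a, chr7:24897247-24897496, plus strand: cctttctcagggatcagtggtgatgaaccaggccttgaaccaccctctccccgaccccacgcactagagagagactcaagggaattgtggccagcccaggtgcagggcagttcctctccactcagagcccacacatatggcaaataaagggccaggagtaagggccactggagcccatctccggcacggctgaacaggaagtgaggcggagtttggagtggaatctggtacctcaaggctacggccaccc
Igj, chr5:88527898-88528147, minus strand: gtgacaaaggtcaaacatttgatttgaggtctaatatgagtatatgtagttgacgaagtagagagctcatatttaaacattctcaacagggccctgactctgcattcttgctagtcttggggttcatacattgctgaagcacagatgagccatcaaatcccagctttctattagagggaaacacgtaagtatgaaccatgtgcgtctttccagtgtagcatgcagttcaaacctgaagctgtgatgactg
Tnfrsf17, chr16:11313559-11313808, plus strand: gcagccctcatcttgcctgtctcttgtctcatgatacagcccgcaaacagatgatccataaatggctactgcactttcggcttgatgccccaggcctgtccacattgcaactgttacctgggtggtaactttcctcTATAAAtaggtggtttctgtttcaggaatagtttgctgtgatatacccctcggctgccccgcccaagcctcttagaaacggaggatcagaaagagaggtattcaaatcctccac

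The motifs were the octamer ATGCAAAT, bound by the Oct factors that Pou2af1 assists, the element TGACGTGG of the unfolded protein response, the CCAAT box and the TATA box TATAAA. The windows of equal length before all 32851 RefSeq promoters held them in 1.60%, 0.563%, 33.8% and 12.4% of cases. Of the 9 genes, 8 had a promoter in the table, and Ms4a1 had no entry. The Pou2af1 window held TGACGTGG at position -61, counted back from the transcription start, and overlapping CCAAT matches on opposite strands at positions -190 and -187. The Tnfrsf17 window held TATAAA at position -114. Prdm1 and Sdc1 each held a CCAAT match, on the opposite strand, at positions -31 and -82. The octamer was in none of the 8 windows, and the Cd79a, Igj, Pigr and Xbp1 windows held none of the 4 motifs. A match describes these letters and no binding was measured.

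Over the 9 arrays, 33.7% to 48.1% of probes were detected, with the lowest shares in mice 8 and 7 of feed B. Across the genes detected on all 9 arrays, every pair of arrays correlated at between 0.92 and 0.98. Feed tests covered the 9653 genes detected on at least 3 arrays. All 7 genes entered them. Igj, Pigr, Pou2af1, Xbp1 and Sdc1 were detected in all 9 mice, and Prdm1 and Tnfrsf17 in 7 each. Of 11 matched epithelial markers, 11 were detected in every mouse, and of 7 smooth muscle markers at least 6, so the tissue carried the markers of gut wall.

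Igj encodes the J chain. Its level was 13.41, 12.20 and 13.47 in mice 7, 8 and 10 of feed B, 12.48, 13.54 and 11.19 in mice 1, 3 and 4 of feed K, and 12.32, 14.48 and 12.88 in mice 4, 8 and 11 of feed G. The lowest and highest mice, K mouse 4 and G mouse 8, were 9.77-fold apart, and the 3 feeds overlapped. The deposited signal ran from 1534 to 31265, and the signal-to-noise ratio was 22.0 or higher throughout. Igj had an SD over mice of 0.96, larger than that of 97.8% of the 5887 genes detected in all mice, whose median SD was 0.29.

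Tnfrsf17 encodes BCMA, the receptor through which plasma cells receive survival signals. Its level was 9.33, 8.58 and 8.98 in feed B, 7.81, 8.70 and 6.54 in feed K, and 8.66, 9.03 and 8.38 in feed G, with the mice in the same order. K mouse 4 was again the lowest, 6.92-fold below the highest mouse. The probe was not detected there (signal-to-noise ratio 2.46) or in B mouse 8 (2.14), and reached 17.8 in G mouse 8. The feeds overlapped here too.

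Pigr encodes the polymeric immunoglobulin receptor, which is made by the epithelium and not by plasma cells. It measured 16.14, 15.75 and 15.19 in feed B, 16.09, 16.10 and 14.71 in feed K, and 16.08, 16.42 and 15.32 in feed G. The range was 3.27-fold, again from K mouse 4 to G mouse 8. B mouse 10 and G mouse 11 were the next lowest, so low mice occurred on every feed.

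Pou2af1 encodes a coactivator of octamer-binding factors that is active in B cells and plasma cells. Its level was 10.71, 9.03 and 10.19 in feed B, 8.01, 7.63 and 9.91 in feed K, and 9.11, 10.65 and 9.17 in feed G. Mice 1 and 3 of feed K had the lowest values of the 9, and mouse 4 of the same feed lay among the higher ones. With a range of 8.46-fold and an SD of 1.09, its spread was larger than that of 98.6% of genes detected in all mice.

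Xbp1, the transcription factor that expands the secretory machinery, had the narrowest range of the 7, with 12.30, 12.47 and 12.84 in feed B, 12.64, 12.33 and 12.56 in feed K, and 12.39, 12.59 and 12.52 in feed G. The highest and lowest mice differed 1.45-fold, both on feed B. Its SD of 0.17 exceeded that of 12.5% of genes detected in all mice. This rested on the quantile normalization: with each array scaled to its median, the SD was 0.41, above that of 42.7% of genes, and in the series table it was 0.31. Xbp1 is also expressed in epithelium.

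Prdm1 encodes Blimp1, a repressor that ends the B cell programme and is also present in villus epithelium. Its level was 6.61, 6.65 and 8.13 in feed B, 8.32, 8.04 and 6.71 in feed K, and 7.34, 7.19 and 8.01 in feed G. Mice 7 and 8 of feed B were below detection, at signal-to-noise ratios of 2.38 and 2.81. The ratio reached at most 7.59, in K mouse 3, so the values lie close to the noise. B mouse 10, K mice 1 and 3 and G mouse 11 were the high ones, above 8, and feeds B and K each held both high and low mice.

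Sdc1 encodes syndecan-1, a surface proteoglycan used to recognise plasma cells that epithelial cells carry as well. Its values were 10.44, 10.97 and 12.15 in feed B, 11.64, 11.51 and 11.06 in feed K, and 11.41, 11.05 and 12.76 in feed G. They spanned 4.97-fold, from B mouse 7 to G mouse 11. The mice of feed K lay within the range of feed B.

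**Figure D1:**
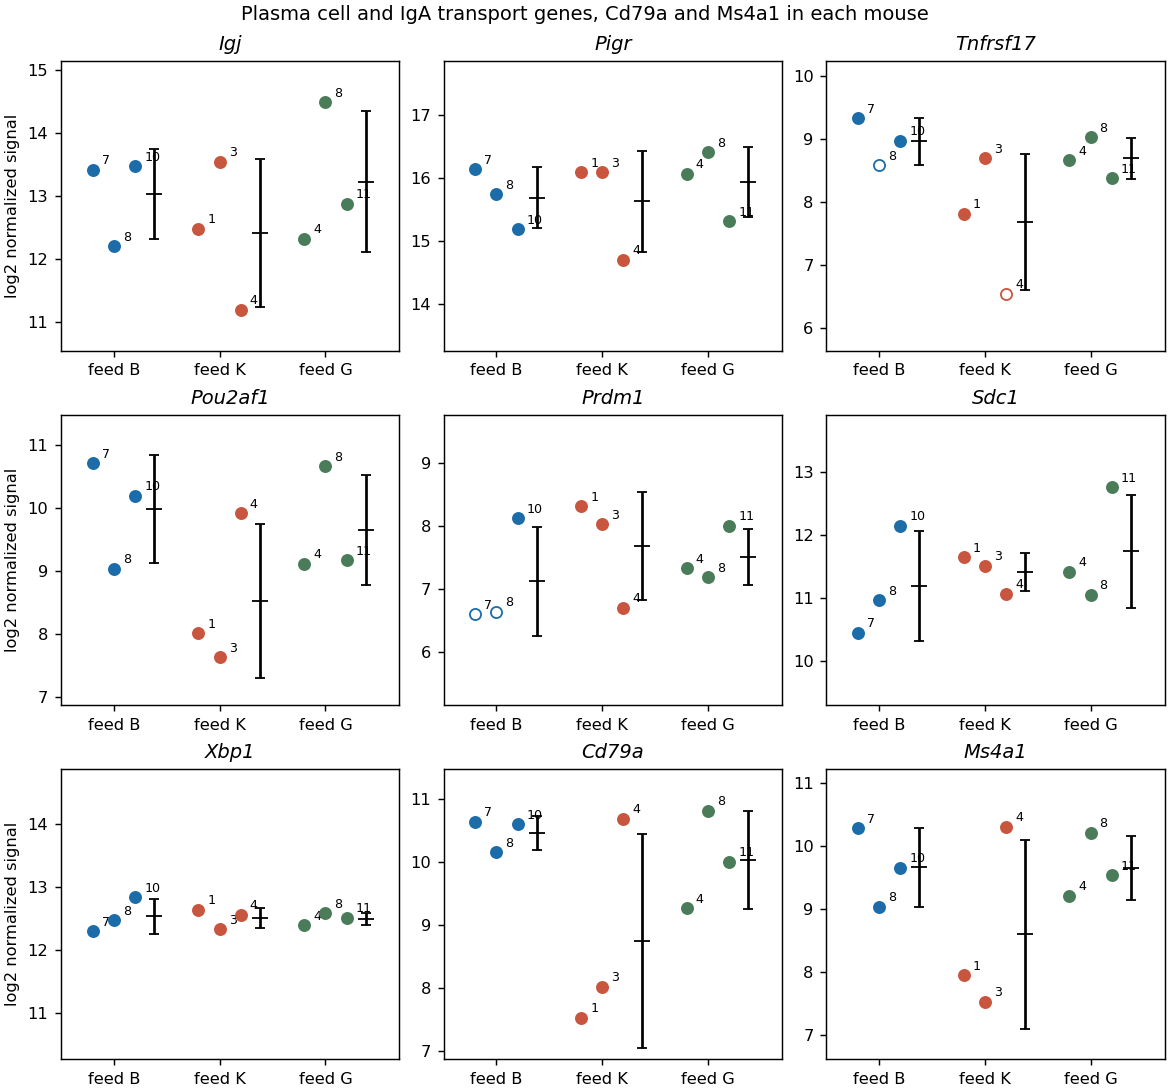
The log2 normalized signal of each gene (vertical axis, with the same span in every panel) in each mouse, by feed. Points are mice with their numbers, open points are below a signal-to-noise ratio of 3, and bars are the mean ± SD of 3 mice. Cd79a, Ms4a1 and Pou2af1 are low in mice 1 and 3 of feed K, whereas Igj, Pigr and Tnfrsf17 are lowest in mouse 4 of that feed.

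The B cell genes used for comparison are Cd79a, a signalling subunit of the B cell receptor, and Ms4a1, which encodes CD20. Cd79a, as the mean of 2 probes, was 10.64, 10.16 and 10.60 in feed B, 7.54, 8.02 and 10.69 in feed K, and 9.27, 10.82 and 10.01 in feed G. Ms4a1 was 10.29, 9.04 and 9.66, then 7.95, 7.53 and 10.31, then 9.21, 10.21 and 9.54. Both were lowest in mice 1 and 3 of feed K and high in mouse 4. The dimmer Cd79a probe was not detected in K mice 1 and 3, where its signal was below background, and the brighter one read 9.03 and 10.40 there, against 10.69 to 12.18 in the other mice. The probes correlated at 0.74 over the mice, and the lowest value of each was in a different one of these K mice.

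No member passed the feed test (limma F test, adjusted p between 0.90 and 1.00 over all 9653 genes), and neither did any other gene, 0.0% of those tested. At an unadjusted p under 0.05 there were 518 genes, 5.37% of those tested, and none of the 7 was among them. That number depended on the scaling, and median scaling gave 1075. Tnfrsf17 came nearest, with an unadjusted p of 0.0746 in limma and 0.111 in an exact permutation test over the 280 groupings of the mice. It averaged 8.96 ± 0.37 in feed B, 7.68 ± 1.08 in feed K and 8.69 ± 0.33 in feed G (SD, n = 3 each).

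Between pairs of feeds, Tnfrsf17 differed by -1.28 (SE 0.50) for K minus B, with an unadjusted limma p of 0.0333 and an adjusted p of 0.78. For that pair, 6.31% of all genes had an unadjusted p under 0.05, and Tnfrsf17 was the one member among them. Without K mouse 4 its difference was -0.71. Under median scaling it was -0.81, with an unadjusted limma p of 0.186, a setting in which the median of all genes was itself 0.41 higher in K than in B. The unadjusted limma p was 0.139 in the series table, 0.0914 with spots below the noise left out and 0.0974 without B mouse 7, so that it passed 0.05 in some settings only. Pou2af1 differed by -1.46 (SE 0.71, unadjusted limma p 0.0731, adjusted p 0.80), and by -2.16 without K mouse 4. The same mouse thus moved these values in opposite directions.

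Igj averaged 13.03 ± 0.72 in feed B, 12.40 ± 1.17 in feed K and 13.22 ± 1.12 in feed G (SD, n = 3 each). Its largest difference between feeds, G minus K, was 0.82 (SE 0.73, limma adjusted p 0.96), and it was 0.19 without G mouse 8, 0.22 without K mouse 4 and 1.39 without K mouse 3. Pigr averaged 15.70 ± 0.48, 15.63 ± 0.80 and 15.94 ± 0.56, and Sdc1 11.19 ± 0.87, 11.41 ± 0.30 and 11.74 ± 0.90, in feeds B, K and G. Xbp1 averaged 12.54 ± 0.27, 12.51 ± 0.16 and 12.50 ± 0.10, so that its feed means lay within 0.05 of each other. Prdm1 averaged 7.13 ± 0.87, 7.69 ± 0.86 and 7.51 ± 0.44. In G minus B and in G minus K no member reached an unadjusted p of 0.05, which 5.74% and 4.54% of all genes did.

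Whether the genes varied apart from the B cell genes was examined over the 9 mice. Altogether 36 pairs were computed, 14 of a member with Cd79a or Ms4a1, 21 among members, and Cd79a with Ms4a1. P-values come from all 362880 orders of the mice and are two-sided, and adjusted p-values cover all 9555 genes correlated with the same gene. None of the 36 pairs passed the adjusted threshold, and 5 had an unadjusted p under 0.05. Of all genes, 3.22% (308) reached an unadjusted p under 0.05 with Cd79a and 3.61% (345) with Ms4a1, and none passed the adjusted threshold with either. At 9 mice, the smallest r, in size, with an unadjusted p under 0.05 with Cd79a was 0.628. The largest that missed it was 0.671. Even an r of 0.95 (Pou2af1 with Ms4a1) did not pass the adjusted threshold, so a relation that was not detected may still exist.

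Pou2af1 was the member that went with the B cell genes. Its r was 0.95 with Ms4a1 (exact permutation p = 0.000309; adjusted p = 0.49) and 0.91 with Cd79a (p = 0.000562; adjusted p = 0.77), with rho of 0.90 (p = 0.00203) and 0.85 (p = 0.00607). Leaving out mice 1 and 3 of feed K, which lay farthest from the median of both B cell genes, gave 0.85 (exact p = 0.0323) and 0.80 (exact p = 0.0272) over 7 mice. Leaving out any 1 mouse kept r between 0.92 and 0.97 with Ms4a1 and between 0.88 and 0.94 with Cd79a. With the mean of each feed subtracted, r was 0.94 and 0.86. With spots left out whose signal was below the noise, r with Cd79a was 0.62 (exact p = 0.0745) and r with Ms4a1 0.95. That setting drops the dimmer Cd79a probe in K mice 1 and 3 only, where Cd79a was then the brighter probe alone. In the other mice it stayed the mean of both, so Cd79a is not comparable between mice in that setting. With the brighter probe in all mice, r of Pou2af1 with Cd79a was 0.86 (exact p = 0.000799). Cd79a and Ms4a1 themselves correlated at 0.94 (exact p = 0.00102). Their r was 0.57 (exact p = 0.105) with those spots left out and 0.84 (exact p = 0.00199) with the brighter probe.

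For Igj no relation to them was detected. Its r was 0.09 with Cd79a (exact permutation p = 0.807) and 0.01 with Ms4a1 (p = 0.972), with rho of 0.12 (p = 0.776) and -0.07 (p = 0.88). Without K mice 1 and 3 these were 0.35 (exact p = 0.441) and 0.24 (p = 0.612). K mouse 3 had the second highest Igj beside nearly the lowest Cd79a, and K mouse 4 the lowest Igj beside the second highest Cd79a. Without K mouse 4, r was 0.39 with Cd79a and 0.37 with Ms4a1, and without G mouse 8 it was -0.15 and -0.27. With spots below the noise left out it was 0.43 with Cd79a (exact p = 0.253), with the limit just given for Cd79a, and 0.07 with Ms4a1. The brighter Cd79a probe in all mice gave 0.25 (exact p = 0.522).

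Tnfrsf17 had r of 0.12 with Cd79a (exact permutation p = 0.766; rho 0.35, p = 0.359) and 0.00 with Ms4a1 (p = 0.994; rho 0.18, p = 0.644). Leaving out K mice 1 and 3 gave -0.07 (exact p = 0.892) and -0.20 (p = 0.777). These low values rested on 1 animal: without K mouse 4, in which Tnfrsf17 was below detection, r was 0.74 with Cd79a (exact p = 0.0316) and 0.68 with Ms4a1 (p = 0.0639) over 8 mice. Its adjusted p remained 0.94 or more. For Tnfrsf17 whether it varied apart from the B cell genes thus turned on that mouse.

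**Figure D2:**
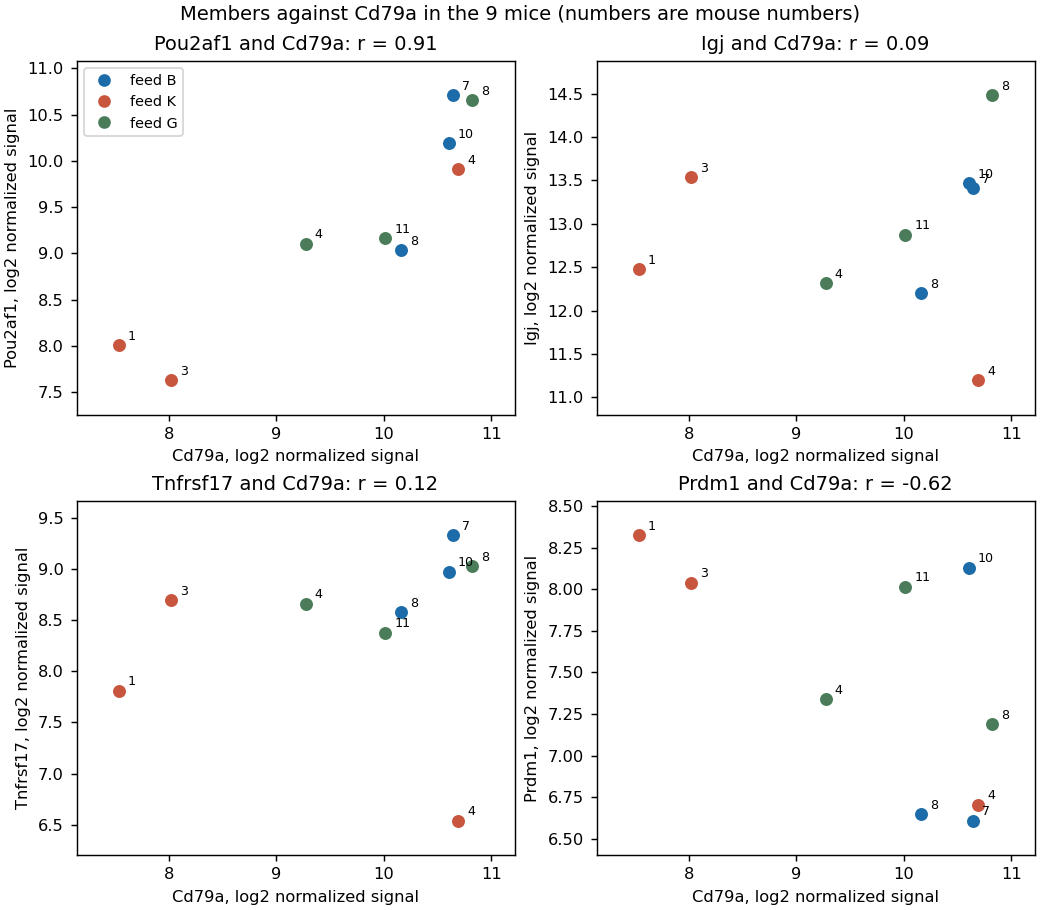
Pou2af1, Igj, Tnfrsf17 and Prdm1 (vertical axes, log2 normalized signal) against Cd79a (horizontal axis, log2 normalized signal), with 1 point per mouse coloured by feed. Pou2af1 rises with Cd79a (r = 0.91), and for Igj no relation to Cd79a was detected (r = 0.09). Tnfrsf17 follows Cd79a only if K mouse 4 is left out (0.12 with that mouse, 0.74 without it), and Prdm1 has a negative r of -0.62.

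The remaining members had no unadjusted p under 0.05 with either B cell gene. Prdm1 had negative values, -0.62 with each (exact permutation p = 0.0775 and 0.0825; rho -0.63, p = 0.076, and -0.55, p = 0.133), but only -0.20 and -0.27 without K mice 1 and 3 (p = 0.70 and 0.533). With spots below the noise left out, where Cd79a is not comparable between mice, r of Prdm1 with Cd79a was -0.25 (exact p = 0.50). The brighter Cd79a probe in all mice gave -0.62 (exact p = 0.0588). Pigr had r of -0.37 with Cd79a (p = 0.327; rho -0.02, p = 0.982) and -0.33 with Ms4a1 (p = 0.39; rho -0.18, p = 0.644), and -0.15 and -0.05 without K mice 1 and 3. Sdc1 had -0.22 (p = 0.575; rho -0.52, p = 0.162) and -0.26 (p = 0.507; rho -0.35, p = 0.359), and -0.29 and -0.37 without them. For Xbp1 r was 0.18 (p = 0.649; rho 0.13, p = 0.743) and 0.15 (p = 0.703; rho 0.12, p = 0.776), and 0.38 and 0.02 without them. Its sign turned with each array scaled to its median and in the series table, as given in the closing section. The difference between the r of Pou2af1 and that of any other member was not tested.

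Among the members, the exact p was under 0.05 for 2 of 21 pairs. Igj and Tnfrsf17 correlated at 0.80 (exact permutation p = 0.0089; rho 0.75, p = 0.0255; adjusted p = 0.46). Without K mouse 4 and G mouse 8, the ends of the Igj range, r was 0.59 (exact p = 0.17), and without K mouse 4 alone it was 0.61 (p = 0.109). With feed means subtracted it was 0.84. Of all genes, 11.3% reached an unadjusted p under 0.05 with Igj and 9.45% with Tnfrsf17, more than with the B cell genes. The share of detected probes per array had r of 0.41 with Igj (exact permutation p = 0.27) and rho of 0.68 (p = 0.0503). With Tnfrsf17 its r was 0.06 (exact permutation p = 0.871) and rho 0.23 (p = 0.552). Without mice 7 and 8 of feed B, r was 0.72 with Igj (exact p = 0.0643) and 0.77 with Tnfrsf17 (p = 0.0244). The part of this share in the pair was not tested.

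Pigr had r of 0.60 with Igj (exact permutation p = 0.0885; rho 0.62, p = 0.0857) and 0.64 with Tnfrsf17 (p = 0.0579; rho 0.63, p = 0.076). Without K mouse 4 these were 0.27 and 0.11, so both rested on that mouse. With Pigr, 5.29% of all genes had an unadjusted p under 0.05.

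Prdm1 and Sdc1 correlated at 0.79 (exact permutation p = 0.00654; rho 0.87, p = 0.00451; adjusted p = 0.35), and at 0.82 (p = 0.00218) without the mice farthest from the median of Prdm1, B mouse 10 and K mouse 1. Leaving out any 1 mouse gave 0.73 to 0.86. Mice 7 and 8 of feed B and mouse 4 of feed K were low in both genes. G mouse 8 was next lowest in Prdm1 (7.19) and slightly below K mouse 4 in Sdc1 (11.05 against 11.06). Its array had the highest share of detected probes, 48.1%. The arrays of B mice 7 and 8 and K mouse 4 had the lowest shares, 36.7%, 33.7% and 41.2%, against 42.1% to 48.1% on the others. Over the 9 arrays that share had r of 0.60 with Prdm1 (exact permutation p = 0.0908; rho 0.47, p = 0.212) and 0.53 with Sdc1 (p = 0.146; rho 0.45, p = 0.23), and 0.07 with each without mice 7 and 8 of feed B. Its part in the relation was not tested. Of all genes, 14.7% reached an unadjusted p under 0.05 with Prdm1 and 11.1% with Sdc1. Sdc1 also had positive r with the epithelial markers Krt20 (0.90), Lgals4 (0.88), Krt8 (0.87), Krt19 (0.87), Cdx1 (0.72) and Epcam (0.66). The other epithelial markers had 0.35 (Vil1), 0.30 (Fabp2), 0.25 (Cdx2), -0.07 (Krt18) and -0.23 (Cdh1). The part of the epithelium in the r of Sdc1 with Prdm1 was not tested.

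**Figure D3:**
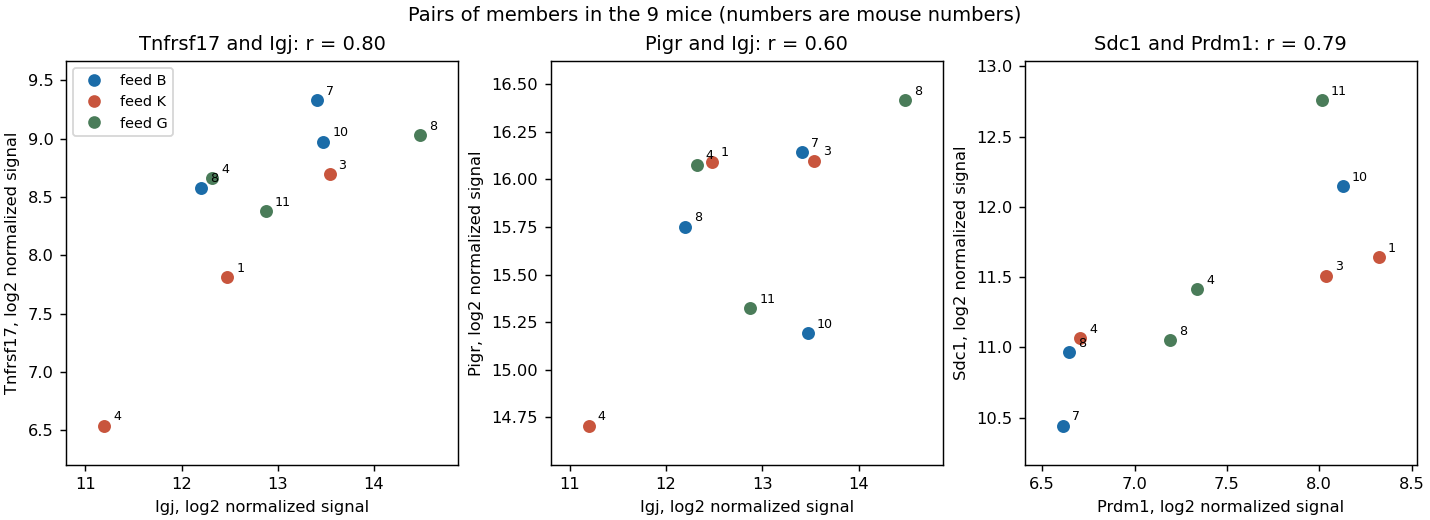
Tnfrsf17 against Igj, Pigr against Igj and Sdc1 against Prdm1, both axes in log2 normalized signal, with 1 point per mouse coloured by feed. K mouse 4 is at the low end of the first and second panels (r = 0.80 and 0.60). In the third (r = 0.79), Prdm1 is above 8 in B mouse 10, K mice 1 and 3 and G mouse 11, and at most 7.34 in the others.

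The other pairs of members did not reach an unadjusted p of 0.05. Igj and Pou2af1 had r of 0.25 (exact permutation p = 0.514), Igj and Xbp1 0.03 (p = 0.936), Igj and Prdm1 0.27 (p = 0.487), and Igj and Sdc1 0.04 (p = 0.924). Xbp1 had 0.42 with Prdm1 (exact p = 0.256) and 0.47 with Sdc1 (p = 0.204), and the latter was 0.88 when each array was scaled to its median instead, with an adjusted p of 0.03. That was the one setting in which any of the 36 pairs passed. With Pou2af1 and with Xbp1, 4.31% and 3.77% of all genes had an unadjusted p under 0.05.

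**Figure D4:**
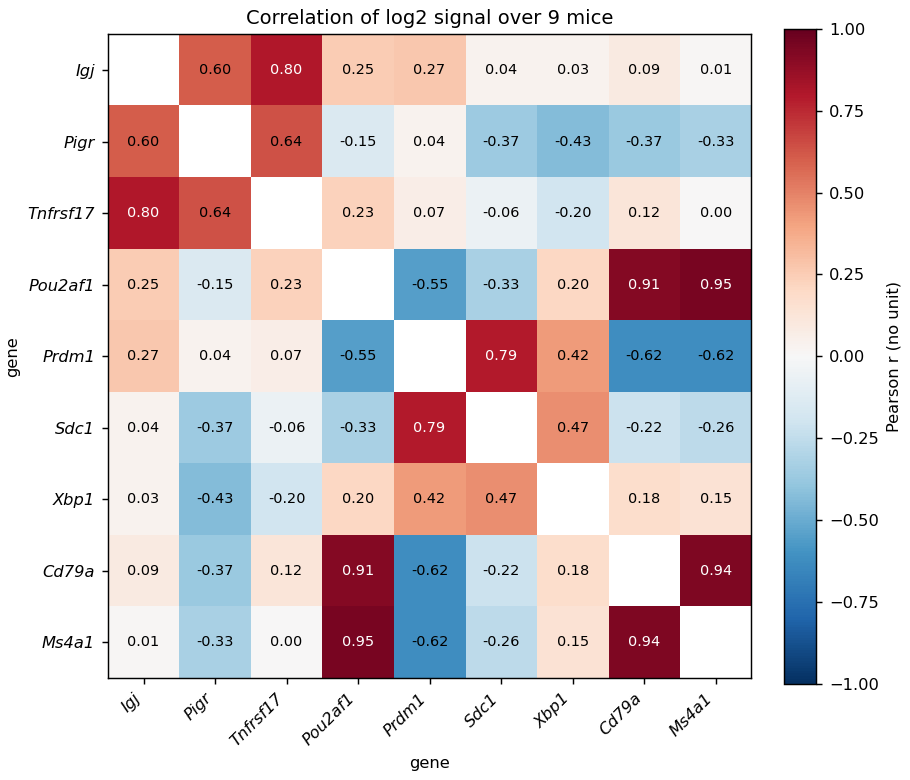
Pearson r of log2 normalized signal over 9 mice for every pair of the 7 genes, Cd79a and Ms4a1, from -1 (blue) to 1 (red). Pou2af1, Cd79a and Ms4a1 have r of 0.91 to 0.95 with each other, Igj with Tnfrsf17 and Prdm1 with Sdc1 are at 0.80 and 0.79, and Xbp1 has no r above 0.47 in size with any other gene shown.

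The genes most like Pou2af1 among 5886 detected in all mice were Mfge8 (r = 0.96), Ms4a1 (0.95), Hcph (0.93), Cd79a (0.91) and 2310069I04Rik (0.91). Mfge8 encodes a secreted protein that marks dying cells for uptake. The B cell genes used for comparison were thus at ranks 2 and 4, while Igj was at rank 1269. For Igj they were Col3a1 (0.93), a collagen of connective tissue, 2410104I19Rik (0.93), 2610028H07Rik (0.93), Klhdc2 (0.92) and 1110064N10Rik (0.90). Pigr was at rank 377, Pou2af1 at 1355, Cd79a at 1944 and Ms4a1 at 2247 in the order for Igj. For Pigr they were 9130401M01Rik;Zhx1 (0.92), Gcdh (0.90), 0610041G09Rik;Acta2 (0.89), Lyn (0.88) and Tnc (0.86), with Igj at rank 178. None of these had an adjusted p under 0.05 (smallest 0.18, exact permutation test). Over all 9555 genes and either sign of r, 2 genes passed that threshold with Pigr and 6 with Prdm1. With Igj, Pou2af1, Xbp1, Tnfrsf17 and Sdc1 none did.

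The list of B cell markers had 15 genes, of which 13 were matched and 10 tested. Pou2af1 had a positive r with 10 of 10, with a median of 0.90, against -0.05 over all genes, and a positive r with an unadjusted p under 0.05 with 9, against 4.31% of all genes with either sign. Cd79b (0.95), Cr2 (0.90) and Fcrla (0.88) were among them, and Cd22, detected in only 3 mice, was at 0.18. With Igj, the same 10 had a median r of 0.02, against -0.03 over all genes, and none had an unadjusted p under 0.05 with a positive r. With Pigr all 10 were negative, with a median of -0.32, against -0.02 over all genes. Between 4 and 10 of the 13 matched markers were detected per mouse, fewest in mice 3 (4) and 1 (5) of feed K. The log2 of their summed signal was 12.61 to 13.24 in feed B, 11.28 to 13.31 in feed K and 12.31 to 13.16 in feed G.

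The list of further plasma cell and IgA genes had 25 entries, of which 23 were matched and 10 detected widely enough to test. The 5 named next were chosen after their values were seen, and the rest of the 10 follow them. Txndc5, a folding enzyme of the endoplasmic reticulum, had r of 0.81 with Igj and -0.07 with Cd79a. Derl3, a component of protein disposal from that compartment, had 0.70 and 0.30. Itgb7, an integrin chain for homing to the gut, had 0.64 and -0.32. Mzb1, an immunoglobulin chaperone of B cells and plasma cells, had 0.46 with Igj and 0.86 with Cd79a, and Tnfrsf13c, the BAFF receptor, 0.21 and 0.56. Of the rest, Fkbp11 had 0.44 and 0.13, Tnfsf12;Tnfsf13 0.43 and 0.24, and Irf4 0.36 and 0.53. Cd38 (-0.17 and 0.13) and Ccl25 (-0.17 and -0.49) had a negative r with Igj. The median r of the 10 with Igj was 0.43, against -0.03 over all genes, and 2 of the 10 had a positive r with an unadjusted exact p under 0.05, which 11.3% of all genes reached with either sign. Derl3, Itgb7 and Tnfrsf13c were detected in only 3 or 4 mice.

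**Figure D5:**
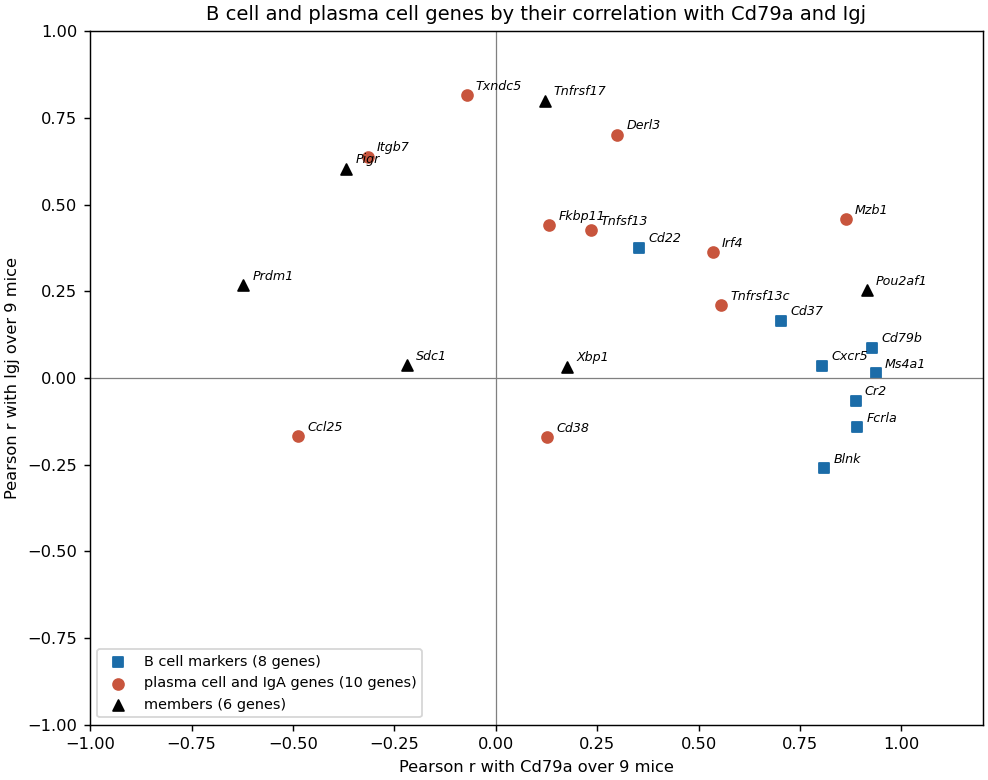
Pearson r over 9 mice with Cd79a (horizontal axis) and with Igj (vertical axis) of 8 tested B cell markers (squares), further plasma cell and IgA genes (circles) and members (triangles). The squares other than Cd22 lie at the right near an r of 0 with Igj, with Pou2af1 beside them, and Txndc5, Tnfrsf17 and Derl3 lie at the top.

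Of 23 symbols of immunoglobulin chains and surrogate chains, 1 (Vpreb3) was matched, and it was detected in 1 mouse, so the antibody transcripts were not analysed here. The T cell list, which stands for other lymphocytes, had 8 matched markers, of which 1 to 7 were detected per mouse. Its 6 tested genes had a median r of 0.42 with Igj, against -0.03 over all genes, and 2 had a positive r with an unadjusted exact p under 0.05, against 11.3% of all genes with either sign. Cd3d had 0.74. The log2 of the summed T cell signal was 10.80 to 11.37 in feed B, 10.32 to 12.25 in feed K and 11.17, 11.82 and 10.39 in mice 4, 8 and 11 of feed G. Its part in the Igj values was not tested.

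None of the genes in these lists passed the feed test (limma). In the plasma cell list, the 3 with the smallest p were Derl3 (6.73, 6.29 and 7.27 in feeds B, K and G), Mzb1 (9.96, 8.76 and 9.53) and Ccl25, the chemokine that draws plasma cell precursors to the small intestine (15.62, 15.72 and 15.37), with unadjusted p of 0.165, 0.241 and 0.261. Among B cell markers, Cd22 (6.69, 5.62 and 7.12) and Cr2 (8.89, 7.02 and 8.17) were at 0.0863 and 0.115. All 10 tested B cell markers had a lower mean in feed K than in feed B, with a median difference of -1.17, against 0.05 over all genes, and K mouse 4 did not share this. With spots left out whose signal was below the noise, 7 of the 10 were lower, with a median of -0.14, against 0.24 over all genes.

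Genes of the Xbp1 pathway, which fold and export secretory proteins, numbered 24, of which 21 were tested. Herpud1, a target of the unfolded protein response, had the smallest p of all listed genes, with means of 11.65 ± 0.56, 12.12 ± 0.08 and 13.00 ± 0.13 in feeds B, K and G (SD, n = 3 each; limma unadjusted p = 0.00332, adjusted p = 0.71). Hyou1 (9.76, 9.57 and 9.0) and Dnajb9 (12.12, 12.00 and 12.55), chaperones of the endoplasmic reticulum, followed at 0.0735 and 0.076. Herpud1 was the 1 gene of the 21 with an unadjusted p under 0.05, against 5.37% of all genes. The list's median r with Igj was -0.07.

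Genes of Pigr transport and regulation numbered 17, of which 15 were tested and 2 had an unadjusted p under 0.05 in the feed test, against 5.37% of all genes. Irf1, an interferon-regulated factor that activates Pigr, had means of 13.11 ± 0.05, 13.48 ± 0.21 and 12.74 ± 0.18 in feeds B, K and G (limma unadjusted p = 0.0112, adjusted p = 0.75). Il17ra, a receptor chain for IL-17, had 9.81 ± 0.29, 9.46 ± 0.17 and 9.0 ± 0.26 (limma adjusted p = 0.89). Yes1, a kinase linked to transcytosis of the receptor, had 10.62, 10.90 and 10.96 (limma adjusted p = 0.90). The median r of the 15 with Pigr was -0.29, against -0.02 over all genes, and none had a positive r with an unadjusted p under 0.05. Pigr is epithelial, and its r was negative with 11 of the 11 epithelial markers tested, with a median of -0.39.

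The epithelial and smooth muscle lists and the T cell list had 0 genes at an unadjusted limma p under 0.05. The 3 smallest p in each were those of Vil1 (0.16), Cdx1 (0.208) and Krt18 (0.235), of Tagln (0.553), Cnn1 (0.568) and Des (0.571), and of Cd4 (0.31), Cd3g (0.325) and Cd2 (0.457). The log2 of the summed epithelial signal lay between 20.95 and 21.85 in all mice, and that of smooth muscle between 16.02 and 16.79. With Igj, the median r was -0.24 over epithelial and 0.02 over smooth muscle markers, and with Pou2af1 it was -0.36 and 0.10.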

How the data were processed

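Jejunal RNA of 9 mice was measured on 1 array each. The authors deposited scanner tables with the signal intensity of each spot, corrected for background and spatially normalized, its signal-to-noise score and a quality flag. The deposited series table holds signal in linear units, and 297108 of its 297108 values equal the assay-normalized column of the scanner tables, whose divisor, and hence centring, is unknown. Column medians lay between 1.06 and 1.53. Where the signal-to-noise ratio was below 1 (119010 spots), the scanner table gives as signal the standard deviation, so such low values are no levels.

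Spots with flags above 5000 were left out, intensities quantile normalized to the arithmetic mean, log2 transformed and averaged per gene name. Feeds were compared with limma 3.58.1 in R 4.3.3 (F test and pairs, Benjamini-Hochberg over genes detected on 3 arrays or more), without covariates, and correlations with exact permutation of the mice (Python 3.11.15, numpy 2.4.6, numba 0.67.0). Both were tested on simulated data. The limma p-values set differences between feeds against the spread between mice. Those of the correlations count the orders of the mice that give at least the observed r in size. The number of arrays limits the precision.

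Members, lists and tests were chosen with earlier results of these data known. Named genes are the members, Cd79a, Ms4a1, the 3 listed genes with the smallest F-test p per list, and the 5 nearest to Igj, Pigr and Pou2af1 by r; other listed genes were named after their values were seen, and 1 listed gene is not reported here. Symbols were matched directly, then by RefSeq accession (GRCm38.p6 table). Alternatives were median scaling, the series table on a log2 scale, the brightest probe, failed spots kept, spots below a signal-to-noise ratio of 1 left out, other filters, Cd79a as a covariate, an exact test, feed means subtracted and each mouse left out.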

Additional observations from a re-analysis of the deposited data

How the results depend on the processing

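No member passed the feed test under any alternative, with adjusted p between 0.43 and 1.00, and none of the 14 pairs with a B cell gene passed. Over all genes, the 0 calls of the feed test became 3 with spots below a signal-to-noise ratio of 1 left out (3 for G minus B and 3 for G minus K), and 1 among genes detected on all arrays (1 for G minus B). Leaving out 1 mouse at a time gave 0 to 3 genes in the F test, 0 to 10 for K minus B and 0 to 3 for G minus B, all of them without B mouse 10. With each array scaled to its median, 1 of the 36 pairs passed (Xbp1 with Sdc1). The cause was not tested. At an unadjusted p under 0.05, the 518 genes of the F test became 1075 with median scaling, the 609 of K minus B 1230 and the 554 of G minus B 1797; with spots below a signal-to-noise ratio of 1 left out they became 908, 980 and 1271.

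Xbp1 turned its sign for G minus B, from -0.04 to 0.52 with median scaling, 0.31 in the series table and 0.22 with spots below a signal-to-noise ratio of 1 left out, settings in which the median gene differed by 0.53, 0.30 and 0.31 for the same pair. Leaving out 1 mouse gave -0.16 to 0.11 for Xbp1, -0.16 to 0.61 for Pigr G minus K and 0.19 to 1.39 for Igj G minus K. The r of Xbp1 with Cd79a was -0.089 with median scaling, -0.17 in the series table and -0.16 with the brightest probe, and with Ms4a1 it was -0.17 in the series table. With feed means subtracted, Igj had -0.18 with Cd79a and -0.24 with Ms4a1, and Tnfrsf17 -0.58 and -0.59. Leaving out 1 mouse, the r with Cd79a ran from -0.15 to 0.39 for Igj, -0.10 to 0.74 for Tnfrsf17 and -0.061 to 0.53 for Xbp1, and with Ms4a1 from -0.27 to 0.37, -0.17 to 0.68 and -0.19 to 0.39.

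Pou2af1 with Cd79a was 0.62 (exact p = 0.0745) with spots below a signal-to-noise ratio of 1 left out, and Cd79a with Ms4a1 was 0.57 there. This removes the dimmer Cd79a probe in K mice 1 and 3 only, so Cd79a is not comparable between mice in that setting. With the brighter Cd79a probe alone in all mice, Pou2af1 had 0.86 and Ms4a1 0.84. No paired analysis was possible because equal mouse numbers on different feeds stand for different mice. Alternatives for the SD over mice and for the B cell markers in feed K were chosen after seeing the data; the SD of Xbp1 was 0.41 with median scaling and 0.31 in the series table, and those of the other members changed by less than 1.5 times. Prdm1 and Tnfrsf17 lay near the detection limit, so their low values are imprecise.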
